A study of Mus musculus with 12 samples.

Results

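Retinoid enzymes and binding proteins were examined in periocular skin of filaggrin-deficient mice with and without MyD88. The set held 10 genes of the 21247 in the count table: the retinol dehydrogenases *Sdr16c5*, *Sdr16c6*, *Dhrs9* and *Rdh10*, the retinal dehydrogenases *Aldh1a1*, *Aldh1a2* and *Aldh1a3*, the retinoic acid-binding proteins *Crabp1* and *Crabp2*, and the retinol esterifying enzyme *Lrat*. They were chosen by name, with the values of ft/ft against ft/ftMyD88-/- skin in these same libraries already known. Their differences are therefore given as a description, and where the fit across all genes called a member, the call is counted beside the share of all genes called and is not independent evidence. All 10 were found in the table and all 10 passed the minimum of 10 counts summed over the libraries.

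Bulk RNA-seq was made from eye-skin biopsies of mice given as 6 weeks old, with 4 libraries labelled ft/ft and 4 labelled ft/ftMyD88-/-. Both groups share the ft allele, a natural point mutation that inactivates filaggrin, on a BALB/c background, from which the study removed the *ma* mutation, and ft/ftMyD88-/- mice came from an in-house cross with MyD88-deficient mice. The knockout is germline, so MyD88 is missing from every cell type, and a difference in a biopsy does not show which cells it came from. The 4 WT samples in the labels were not analysed here.

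Vitamin A reaches skin as retinol, which cells hold on binding proteins or store as retinyl esters made by LRAT and other acyltransferases. Active retinoic acid is made from retinol in consecutive oxidations, first to retinal by retinol dehydrogenases of the short-chain dehydrogenase family and then to retinoic acid by the ALDH1A enzymes. CRABP2 carries retinoic acid to its nuclear receptors, and enzymes of the CYP26 family degrade it. In skin, retinoids are known for their effects on keratinocyte differentiation, on the hair cycle and on the size of sebaceous glands. SDR16C5 and SDR16C6, also called RDHE2 and RDHE2S, are retinol dehydrogenases encoded side by side.

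The ft/ft libraries held 18941705 to 29255129 counts and the ft/ftMyD88-/- libraries 15802957 to 27037997. Values per library are CPM, counts of a gene scaled to the size of the library with the TMM factors of edgeR. *Myd88* itself was at 30.7 ± 4.74 CPM (SD, n = 4) in ft/ft and 41.2 ± 7.29 (SD, n = 4) in ft/ftMyD88-/-, with overlapping libraries (log2 fold change 0.42, standard error or SE 0.142, adjusted p = 0.0484 by edgeR), so the gene count did not mark the knockout and directions rest on the labels. *Flg* was at 103 ± 69.8 and 242 ± 39.5 CPM (SD, n = 4 each; edgeR adjusted p = 0.12). *Tmem79*, the gene that the *ma* mutation affects, was at 59.2 ± 2.92 and 16.4 ± 2.10 CPM (SD, n = 4 each; log2 fold change -1.85, SE 0.103, adjusted p = 5.08e-07 by edgeR). Every ft/ftMyD88-/- library lay below every ft/ft library for *Tmem79*. Counts do not show whether the groups carry the same allele of this gene. The design text calls all mice female. Summed over *Ddx3y*, *Eif2s3y*, *Uty* and *Kdm5d*, Y-linked transcripts were at 132 to 164 CPM in ft/ft against 0 to 1.31 in ft/ftMyD88-/-, while *Xist* was at 0 to 0.0429 against 34.6 to 66.8 CPM. By these transcripts the ft/ft libraries were male and the ft/ftMyD88-/- libraries female, which differs from the design text. The comparison is thus also one of male against female. The study also describes inflamed periocular skin with a thickened epidermis in ft/ftMyD88-/- mice at 6 weeks. It saw no visible inflammation in ft/ft mice. In every value that follows, for genes on any chromosome, differences by sex, by genotype and by inflammation of the skin cannot be told apart. The libraries were those of skin by their keratinocyte markers, with a basal list of 6 genes including *Krt5* and *Krt14* summing to at least 13887 CPM in every ft/ft library and to at most 11940 in the others.

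Because *Sdr16c5* and *Sdr16c6* are relatives that lie next to each other, their sequences were compared first, to see whether reads could be shared. The methods of the study give single reads of 50 bases, and that length was used here. The labels of these libraries name another protocol, so the read length is not settled. *Sdr16c5* lies on chromosome 4 of GRCm38.p6 (RefSeq, chr4:3995942-4019663, minus strand) and *Sdr16c6* on the same strand at chr4:4055926-4077514. They are 36262 bases apart, with 0 RefSeq genes lying wholly between them. Their coding sequences, 927 and 948 bases long in GENCODE M21 of the same build, were 61.46% identical over a global alignment. The 50-base stretch in which they were most alike is given here with the 8 differing bases in capitals. It covers coding bases 308 to 357 of *Sdr16c5* and 296 to 345 of *Sdr16c6*, counted from the start codon.
Sdr16c5: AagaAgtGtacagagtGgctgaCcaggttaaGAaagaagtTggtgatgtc
Sdr16c6: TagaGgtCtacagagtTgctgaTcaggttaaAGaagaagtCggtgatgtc

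Of 1517 different 50-base windows in the GENCODE transcripts of *Sdr16c5*, 0 were present in a transcript of any other gene, and of 1882 windows of *Sdr16c6*, 0 were. The same count was 0 for *Rdh10*, *Aldh1a2*, *Crabp1*, *Crabp2* and *Lrat*. It was 9 of 4232 windows (0.213%) for *Dhrs9* and 53 of 4601 (1.15%) for *Aldh1a3*. *Aldh1a1* differed from these, since its near copy *Aldh1a7* was 91.62% identical over the coding sequence and shared 151 of the 4934 *Aldh1a1* windows (3.06%). The longest run the pair shared, of 100 bases from coding base 757 on, is long enough to hold a whole 50-base read.
Aldh1a1 and Aldh1a7: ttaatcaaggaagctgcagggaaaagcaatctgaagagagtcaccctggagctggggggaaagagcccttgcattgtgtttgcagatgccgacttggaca

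Genes were ordered by level per kilobase of exon, which allows them to be compared only if reads come from whole transcripts. The sources disagree on the protocol, so this is not settled for these libraries. In this order, *Sdr16c6* stood first in both groups. In ft/ft it was at 513 ± 70.2 CPM per kilobase (SD, n = 4), followed by *Sdr16c5* at 215 ± 21.7 and *Crabp2* at 182 ± 17.0. The libraries of these last genes overlapped. *Crabp1* came next at 24.1 ± 7.60. *Rdh10* and *Aldh1a3*, at 9.79 ± 0.900 and 9.49 ± 3.09 CPM per kilobase, overlapped, and *Aldh1a1* was at 7.10 ± 0.506. The least abundant were *Dhrs9* at 3.09 ± 0.947 CPM per kilobase, *Aldh1a2* at 1.12 ± 0.323 and *Lrat* at 0.972 ± 0.138, of which the last pair overlapped. In ft/ftMyD88-/- skin, *Sdr16c5* moved from the second to the third place, at 39.8 ± 2.70 CPM per kilobase, below *Crabp2* at 134 ± 17.9 and overlapping *Crabp1* at 26.1 ± 9.86.

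**Figure D1:**
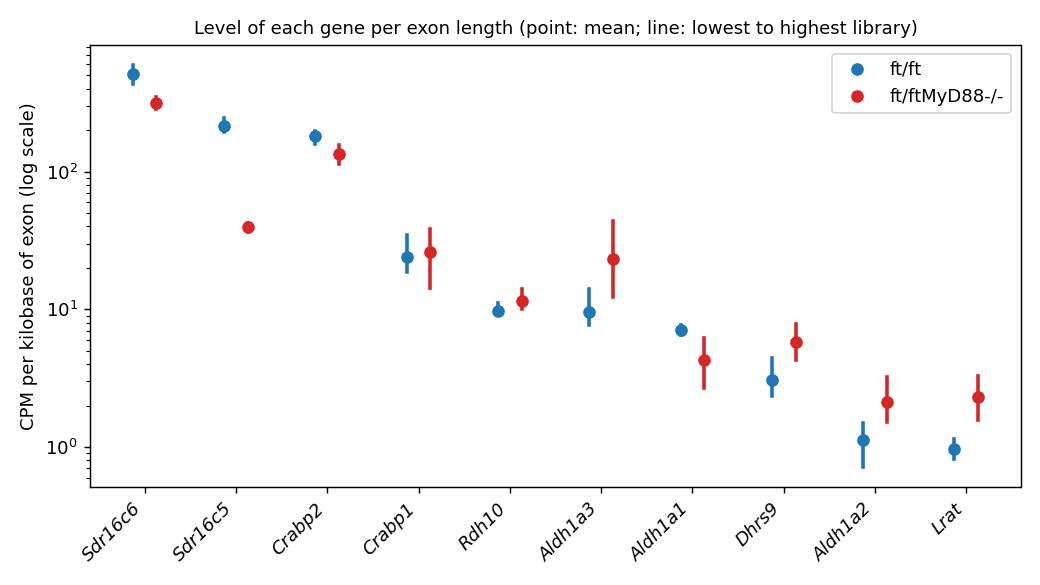
Level of each gene in CPM per kilobase of exon (log axis) in ft/ft (blue) and ft/ftMyD88-/- (red), with points for group means and lines from the lowest to the highest of 4 libraries. *Sdr16c6*, *Sdr16c5* and *Crabp2* stand above the other 7 genes in ft/ft, and *Sdr16c5* alone among them drops to the level of *Crabp1* in ft/ftMyD88-/-.

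In a fit across all 20454 genes tested with edgeR, 4 of the 10 genes were called lower in ft/ftMyD88-/- at an adjusted p under 0.05 and 3 were called higher. The share of all genes called was 12.3% in the lower and 10.9% in the higher direction. Every ft/ftMyD88-/- library lay below every ft/ft library for *Sdr16c5*, *Sdr16c6*, *Aldh1a1* and *Crabp2*, as it did for 14.2% of all genes tested. Every ft/ftMyD88-/- library lay above every ft/ft library for *Aldh1a2* and *Lrat*, as for 12.5% of all genes. The median log2 fold change of the 10 genes was 0.18, beside 0.01 for all genes tested. The set thus held genes on both sides, within the retinol dehydrogenases and within the retinal dehydrogenases alike. With library size alone as the scaling, the median of all genes moved from 0.01 to 0.19, the members of the set called lower were 2 and those called higher 4, and the genes called over the whole table were 1326 lower and 4638 higher in place of 2525 and 2239. A biopsy does not show whether a lower value means fewer cells of a type or less RNA per cell.

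**Figure D2:**
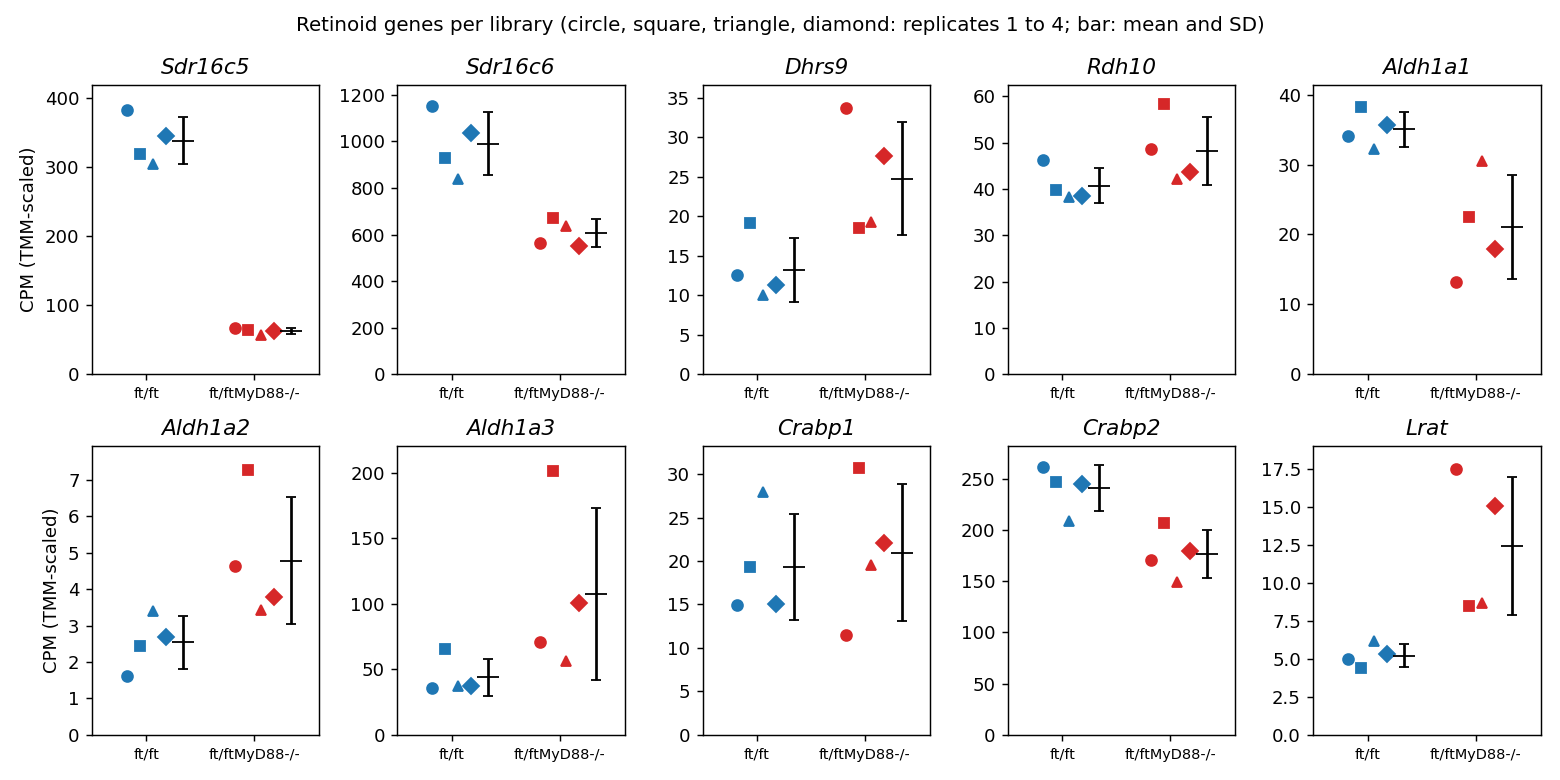
CPM of each of the 10 genes in every library (axes from 0), with ft/ft in blue and ft/ftMyD88-/- in red, a different marker for replicates 1 to 4, and the mean with its SD in black. *Sdr16c5* shows the widest gap relative to its spread, whereas *Crabp1*, *Rdh10*, *Dhrs9* and *Aldh1a3* overlap between the groups.

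Among the retinol dehydrogenases, *Sdr16c5* was at 382, 319, 305 and 345 CPM in ft/ft replicates 1 to 4 and at 66.8, 64.4, 56.9 and 61.8 in ft/ftMyD88-/- replicates 1 to 4. The lowest ft/ft library thus stood far above the highest ft/ftMyD88-/- library, and the spread was narrow in both groups, with an SD of 10.1% and 6.79% of the mean. The log2 fold change was -2.44 (SE 0.0998), which is 5.41-fold lower in ft/ftMyD88-/-. *Sdr16c6* was at 1154, 931, 839.7 and 1039 CPM in ft/ft and at 564, 673, 638 and 552 in ft/ftMyD88-/-. Its groups were also apart, by a smaller step, with a log2 fold change of -0.71 (SE 0.117). The ratio of *Sdr16c6* to *Sdr16c5* CPM, which does not depend on how libraries were scaled, was 2.75 to 3.02 in ft/ft libraries against 8.44 to 11.2 in ft/ftMyD88-/- libraries. These neighbouring genes therefore changed to unequal extents in every ft/ftMyD88-/- library.

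The enzymes DHRS9 and RDH10 belong to the same superfamily, and RDH10 is the retinol dehydrogenase that embryos require. *Dhrs9* was at 12.5, 19.1, 9.98 and 11.3 CPM in ft/ft against 33.7, 18.5, 19.3 and 27.6 in ft/ftMyD88-/-. Most ft/ftMyD88-/- libraries were higher, but ft/ft replicate 2 exceeded ft/ftMyD88-/- replicate 2, and the log2 fold change was 0.90 (SE 0.246). The call was lost without ft/ft replicate 1, 3 or 4 or ft/ftMyD88-/- replicate 4 (0.79 to 0.87). *Rdh10* was at 46.3, 39.8, 38.3 and 38.6 CPM in ft/ft against 48.6, 58.4, 42.2 and 43.7 in ft/ftMyD88-/-, a log2 fold change of 0.24 (SE 0.113) with overlapping libraries. It did not reach the threshold of the fit.

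A sequence from *Dhrs9* is shown because, of the 7 RefSeq promoters found for 6 of the 10 genes (250 bases before to 50 after the start), it was the one that held the retinoic acid receptor half-site AGGTCA on either strand. Of 32851 promoters of the same length, 16.26% held it, and 0 of the 7 held a direct repeat of it spaced by 2 or 5 bases, against 0.01% of all promoters for either spacing. The window lies at chr2:69380212-69380511 (GRCm38.p6, plus strand), and the half-site, which is on the opposite strand and starts 88 bases before the transcription start, is in capitals. A match of letters is not a binding site.
Dhrs9 promoter: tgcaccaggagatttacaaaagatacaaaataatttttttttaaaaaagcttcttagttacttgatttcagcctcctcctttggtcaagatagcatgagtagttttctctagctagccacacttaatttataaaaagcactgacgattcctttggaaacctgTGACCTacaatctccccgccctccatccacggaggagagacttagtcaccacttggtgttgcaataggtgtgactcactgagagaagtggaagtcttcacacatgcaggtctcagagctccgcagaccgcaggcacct

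The retinal dehydrogenases, which make retinoic acid, did not share a direction. *Aldh1a1* was at 34.1, 38.2, 32.3 and 35.7 CPM in ft/ft and at 13.2, 22.6, 30.6 and 17.9 in ft/ftMyD88-/-, a log2 fold change of -0.73 (SE 0.213). The groups were separated by a small gap, since ft/ftMyD88-/- replicate 3 came close to the ft/ft libraries, and the values of ft/ftMyD88-/- libraries spread more widely than those of ft/ft, with an SD of 35.2% against 7.13% of the mean. The call was lost without any 1 ft/ft library and without ft/ftMyD88-/- replicate 2 or 4 (-0.77 to -0.66). Its near copy *Aldh1a7* was at 19.5 ± 2.79 and 15.9 ± 4.34 CPM (SD, n = 4 each; log2 fold change -0.30, SE 0.174, adjusted p = 0.245 by edgeR), and reads from the bases they share could have been assigned to either or to neither. *Aldh1a2*, the retinal dehydrogenase best known from embryos, was low throughout, at 1.63, 2.44, 3.40 and 2.68 CPM in ft/ft against 4.65, 7.28, 3.44 and 3.78 in ft/ftMyD88-/-. Every ft/ftMyD88-/- library was higher, although replicate 3 exceeded the highest ft/ft library only slightly, and the log2 fold change was 0.93 (SE 0.272). The call was lost without ft/ft replicate 1, 2 or 4 or ft/ftMyD88-/- replicate 2 (0.65 to 0.96).

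*Aldh1a3* had the widest spread of the 10 genes. It was at 35.8, 65.2, 37.1 and 37.2 CPM in ft/ft and at 71.1, 201, 56.5 and 101 in ft/ftMyD88-/-. Replicate 2 was the highest library in both groups, and that of ft/ft exceeded ft/ftMyD88-/- replicate 3. The log2 fold change was 1.29 (SE 0.457), which did not pass the edgeR fit, and it was 0.80 without ft/ftMyD88-/- replicate 2. A list of 7 stress keratinocyte genes included *Krt6a*, *Krt16* and *S100a8*, with *Sprr1b* alone called, higher. *Krt17* was the most abundant of them, with means of 2209 CPM in ft/ft and 2741 in ft/ftMyD88-/-, and weighs most in the sum. The list summed to 3828 CPM in ft/ft replicate 2 and to between 2799 and 3096 in the other ft/ft libraries. In ft/ftMyD88-/- replicates 1 to 4 it summed to 4477, 5743, 3663 and 6560, where replicate 4 and not replicate 2 was highest. The 5 lacrimal and conjunctival markers tested (*Krt13*, *Krt4*, *Muc5ac*, *Muc4* and *Aqp5*), of which 2 were called lower, summed highest in replicate 2 of either group, at 2501 CPM in ft/ft against 1260 to 1765 in the other 3 and at 1716 in ft/ftMyD88-/- against 985 to 1236. The part of either in the *Aldh1a3* values was not tested.

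Binding and storage genes also split. *Crabp2*, whose product brings retinoic acid to its receptors, was at 262, 247, 209 and 245 CPM in ft/ft against 171, 207, 149.5 and 179.5 in ft/ftMyD88-/-. The groups were apart by a narrow margin, between ft/ft replicate 3 and ft/ftMyD88-/- replicate 2, and the log2 fold change was -0.45 (SE 0.11). *Crabp1*, which binds retinoic acid and is a marker of dermal papilla and some fibroblasts, was at 14.96, 19.3, 27.9 and 15.1 CPM in ft/ft against 11.5, 30.7, 19.5 and 22.1 in ft/ftMyD88-/-. Its libraries overlapped fully and the log2 fold change was 0.12 (SE 0.313). *Lrat* was at 4.97, 4.36, 6.14 and 5.33 CPM in ft/ft against 17.4, 8.45, 8.68 and 15.1 in ft/ftMyD88-/-. All ft/ftMyD88-/- libraries were higher, with replicates 1 and 4 above replicates 2 and 3, and the log2 fold change was 1.25 (SE 0.239), or 2.38-fold.

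Hair follicle transcripts varied among the same libraries. A list of 9 anagen hair follicle genes (3 called higher, namely *Lef1*, *Msx2* and *Hoxc13*, and 0 lower) summed to 1480, 995, 1280.3 and 1571 CPM in ft/ft and to 9044, 1271, 2013 and 5032 in ft/ftMyD88-/-. The ft/ftMyD88-/- libraries with the highest sums, replicates 1 and 4, were those with the highest *Lrat* and *Dhrs9* and the lowest *Aldh1a1*. In replicate 2, whose sum lay within the ft/ft range, *Lrat* was above and *Aldh1a1* below every ft/ft library. With replicate 1 left out, the log2 fold changes were 1.04 for *Lrat* and -0.56 for *Aldh1a1*. Other marker sums varied with these genes too. After the mean of each group was subtracted from log2 values, *Aldh1a1* had a Pearson r of -0.82 with the hair sum and 0.86 with the skeletal muscle sum. *Lrat* had 0.93 with the hair sum and 0.87 with the melanocyte sum, and *Dhrs9* 0.57 with hair and -0.72 with muscle. These were picked from the values of all members with all marker lists. Others were of similar size, such as -0.75 for *Aldh1a1* with the melanocyte sum and 0.66 for *Dhrs9* with the differentiated keratinocyte sum. The part of hair follicles or of other tissues in these values was not tested.

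**Figure D3:**
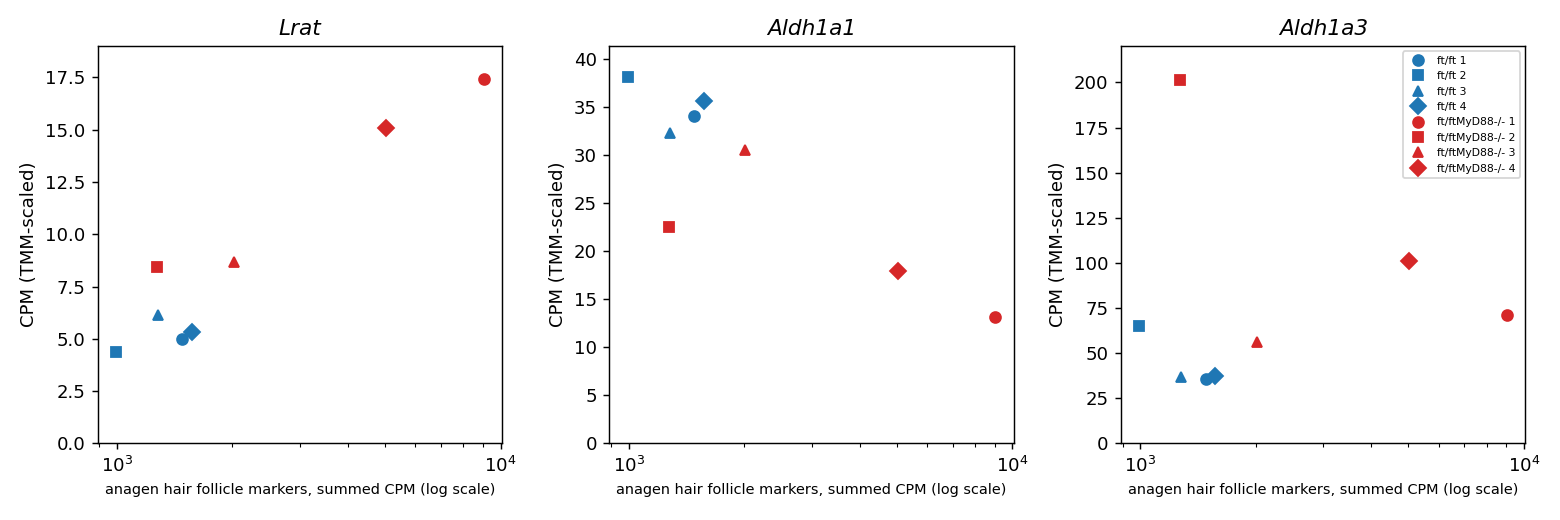
CPM of *Lrat*, *Aldh1a1* and *Aldh1a3* (vertical axes from 0) against the summed CPM of 9 anagen hair follicle markers (log axis) in the 4 ft/ft (blue) and 4 ft/ftMyD88-/- (red) libraries. Replicates 1 and 4 of ft/ftMyD88-/- lie farthest right, with *Lrat* at 17.4 and 15.1 CPM and *Aldh1a1* at 13.2 and 17.9, whereas *Aldh1a3* is highest in replicate 2.

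Sebaceous glands and the related meibomian glands of the eyelid are a known site of several of these enzymes. Of 14 markers of these glands, 9 were called lower and 0 higher, with a median log2 fold change of -0.46, and their sum was 26284 to 29306 CPM in ft/ft against 15683 to 22770 in ft/ftMyD88-/-. *Scd3* had the largest difference of the list (log2 fold change -1.06, SE 0.166, adjusted p = 0.00133 by edgeR), whereas that of *Krt79* was -0.01. The log2 fold changes of *Sdr16c6* and *Crabp2* lay in the range of the gland markers, -1.06 to 0.18 (*Elovl3*), as did those of *Aldh1a1* and *Crabp1*. The basal keratinocyte list, from -1.36 (*Krt15*) to 0.05 (*Krt14*), held those of *Sdr16c6* and *Crabp2* as well. The log2 fold change of *Sdr16c5* lay below that of each of the 14 gland markers. After the mean of each group was subtracted, r with the gland sum was 0.41 for *Sdr16c6*, 0.38 for *Crabp2* and 0.18 for *Sdr16c5*. By histology, the study reported a similar number of sebaceous glands in both groups and markedly larger glands in ft/ftMyD88-/- skin. The part of the glands in the values above was not tested. Skeletal muscle genes were lower as well, with 8 of 10 called lower and 0 higher, and sums of 8235 to 11232 against 3175 to 6131 CPM. Of 7 dermal fibroblast genes, 3 were called lower, the collagens *Col1a1*, *Col1a2* and *Col3a1*, and 0 higher. The others were not called, with log2 fold changes of -0.40 for *Dcn*, 0.09 for *Lum*, 0.31 for *Pdgfra* and 0.39 for *Dpt*. The fibroblast sum, mostly collagen, was 14283 to 29383 against 7198 to 10677 CPM. All 7 T cell genes were called higher, with sums of 13.6 to 19.2 and 25.2 to 33.4 CPM. Of the dermal papilla list, to which *Crabp1* is close in known expression, 3 of 6 genes were called higher and 0 lower. Differentiated keratinocyte and basal keratinocyte genes were called lower in 3 of 6 and 4 of 6 cases. Of 7 adipocyte, 6 melanocyte, 7 macrophage and 3 neutrophil genes, 0, 0, 0 and 1 were called lower and 0, 1, 1 and 0 higher. Retinal markers were near 0, summing to at most 5.37 CPM, with 3 of 4 called lower.

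The position of *Sdr16c5* was examined next. Of 9 genes tested within 1 Mb of it, *Sdr16c6* aside, 1 was called lower and 1 higher, beside 12.3% and 10.9% of all genes. *Penk*, which encodes proenkephalin, was at 30.2 ± 6.20 CPM in ft/ft against 20.7 ± 4.19 in ft/ftMyD88-/- (SD, n = 4 each; log2 fold change -0.54, SE 0.165, adjusted p = 0.0329 by edgeR). The pseudogene *Rps10-ps3* was listed at 0 in all ft/ft libraries and at 0.214 ± 0.0546 CPM (SD, n = 4) in ft/ftMyD88-/-, near the limit of 0.102 to 0.183 CPM that 3 counts give in these libraries. *Chchd7* and *Plag1*, to the other side of *Sdr16c5*, had log2 fold changes of 0.29 and 0.54 and were not called (edgeR adjusted p = 0.186 and 0.102).

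**Figure D4:**
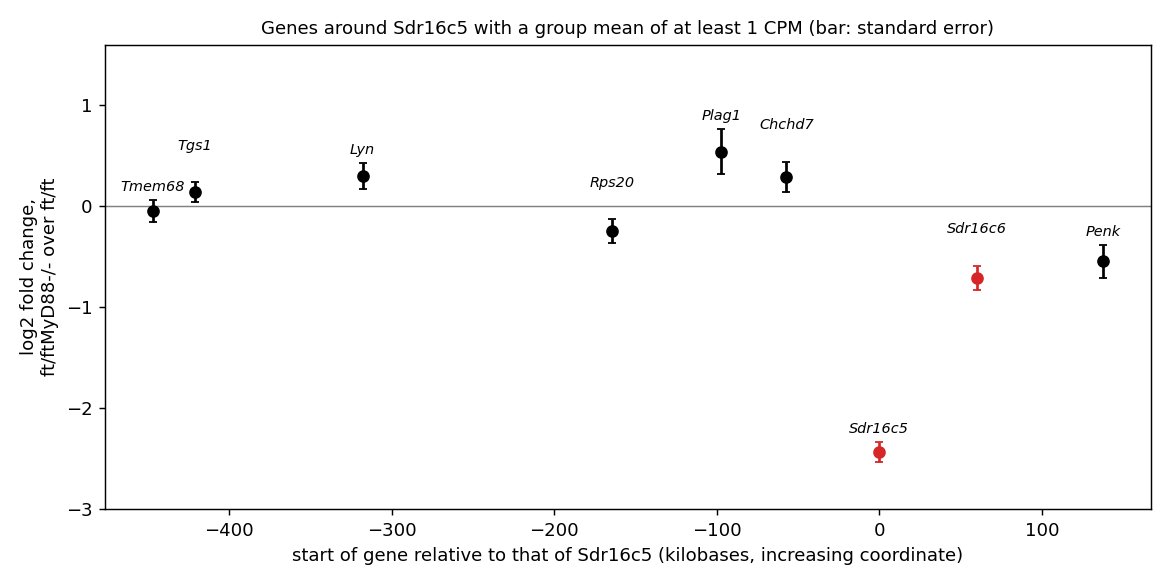
Log2 fold change of ft/ftMyD88-/- over ft/ft with its standard error for genes around *Sdr16c5* with a group mean of at least 1 CPM, against distance from the start of *Sdr16c5* in kilobases. *Sdr16c5* at -2.44 stands well below its neighbours *Sdr16c6* at -0.71 and *Penk* at -0.54.

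Over the 8 libraries, the genes whose log2 CPM followed *Sdr16c5* most closely were *Tma7-ps* (Pearson r = 0.998), *Paqr7* (0.997), *CAAA01093177.1* (0.997), *Tpm3-rs7* (0.996) and *Ano8* (0.996), out of 13507 genes with a mean of at least 50 counts. The libraries fall into separate groups, so these values describe mainly a shared difference between the groups, and no p is given. *Paqr7*, which encodes a membrane progestin receptor and lies on the same chromosome as *Sdr16c5* (chr4:134496761-134510237), was at 667 ± 42.1 CPM in ft/ft against 89.9 ± 15.2 in ft/ftMyD88-/-. *Tma7-ps* and *Tpm3-rs7* are named as copies of other genes, whose reads the counting could have split, and they were at 0.780 ± 0.197 and 1.94 ± 0.531 CPM in ft/ftMyD88-/- against 42.0 ± 4.14 and 126 ± 6.89 in ft/ft (SD, n = 4 each). After the mean of each group was subtracted, r over the 45 pairs of the set ran from -0.89 (*Aldh1a1* with *Lrat*) to 0.81 (*Rdh10* with *Crabp2*), as a description of 8 libraries that share a small number of deviations.

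Beyond the set, 50 other genes of retinoid uptake, storage, oxidation, degradation and response were listed, of which 46 were in the table and 44 were tested. Of these, 11 were called lower and 6 higher in ft/ftMyD88-/-, beside the 12.3% and 10.9% of all genes, with a median log2 fold change of -0.14.

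**Figure D5:**
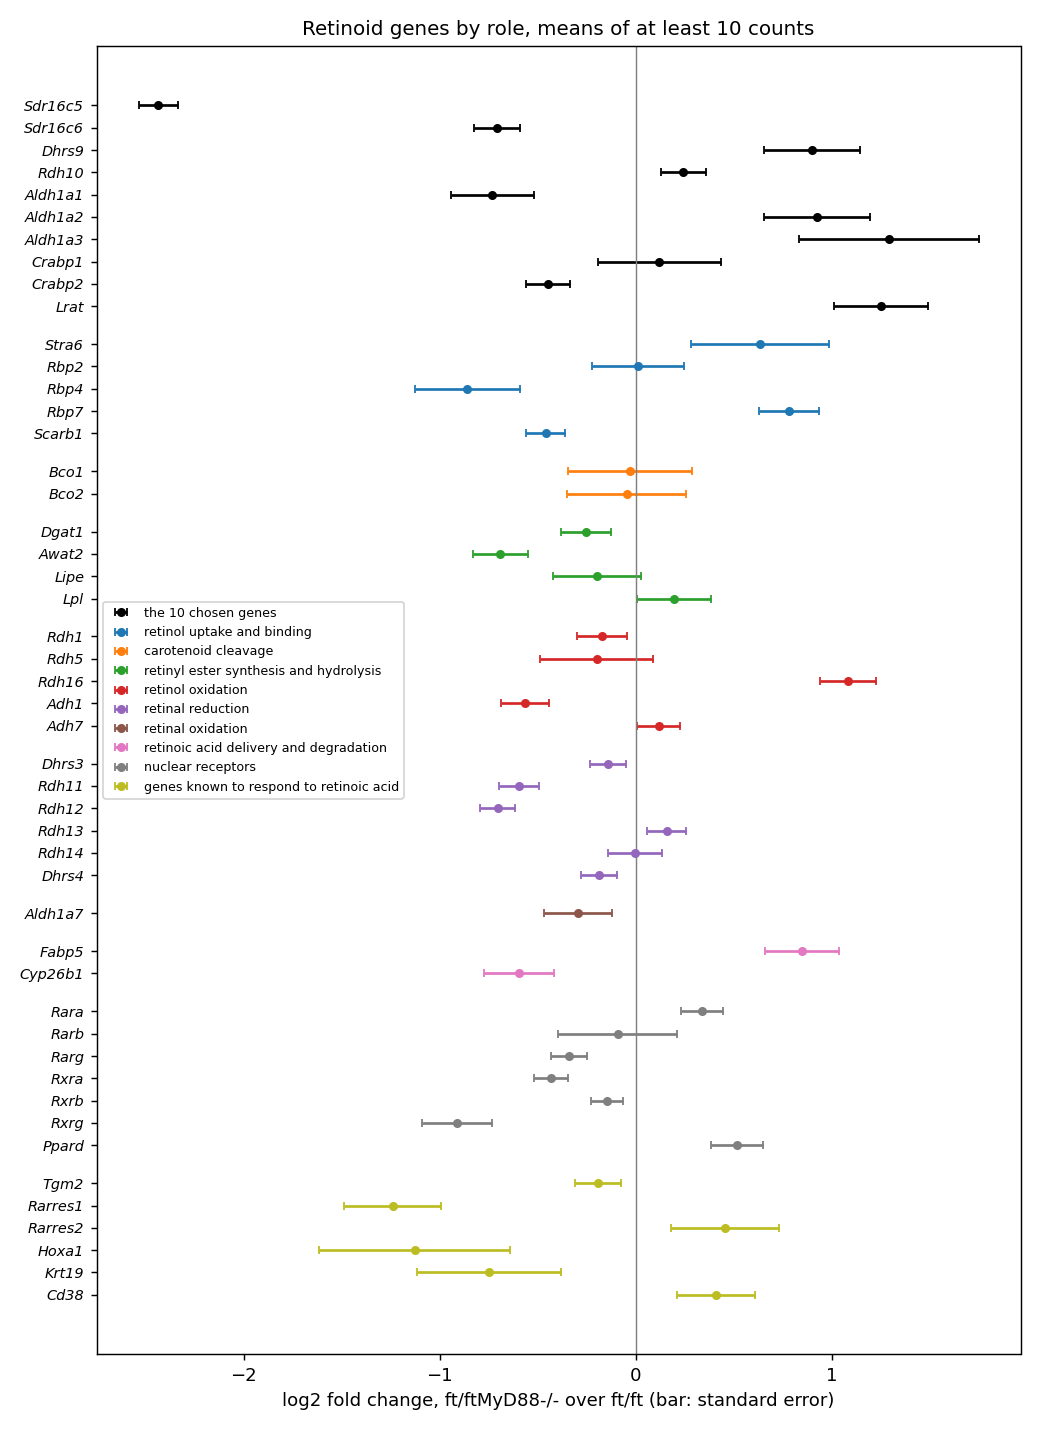
Log2 fold change of ft/ftMyD88-/- over ft/ft with its standard error for the 10 chosen genes (black) and for all but 1 of the listed retinoid genes with a mean of at least 10 counts, coloured by role. Values run from -2.44 (*Sdr16c5*) to 1.29 (*Aldh1a3*), and most roles hold genes on either side of 0.

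Of 8 genes of retinol uptake and binding, 2 were called lower and 2 higher. *Rbp4*, the carrier of retinol in plasma, was at 47.8, 26.7, 36.0 and 48.1 CPM in ft/ft against 18.2, 16.6, 33.3 and 19.2 in ft/ftMyD88-/- (log2 fold change -0.86, SE 0.266, adjusted p = 0.0488 by edgeR), with overlapping libraries. *Scarb1*, which takes up carotenoids and lipids, fell by 0.46 on the log2 scale (SE 0.0996, adjusted p = 0.00633 by edgeR). *Rbp7*, which encodes a retinol-binding protein of cells, rose from 3.23 to 5.58 CPM (log2 fold change 0.78, SE 0.152, adjusted p = 0.00355 by edgeR). *Stra6*, the receptor through which cells take retinol from its plasma carrier, was at 15.4 to 25.9 CPM in ft/ft against 17.7 to 54.2 in ft/ftMyD88-/- and was not called (log2 fold change 0.64, edgeR adjusted p = 0.24). The carotenoid-cleaving *Bco1* had a log2 fold change of -0.03 (edgeR adjusted p = 0.961), and 0 of the 2 genes of that role were called.

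Among 4 genes of ester synthesis and hydrolysis, *Awat2* alone was called. Its product makes wax esters and can esterify retinol, and it is also among the gland markers above. *Awat2* was at 1752, 1653, 1436 and 1633 CPM in ft/ft against 1032, 1240.0, 745 and 996 in ft/ftMyD88-/- (log2 fold change -0.69, SE 0.141, adjusted p = 0.0047 by edgeR), and no libraries overlapped. *Lrat* and *Awat2* thus had opposite directions.

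Of 7 further retinol-oxidising genes tested, *Rdh16* rose and *Adh1* fell. *Rdh16* was at 6.94, 7.13, 6.30 and 5.83 CPM in ft/ft against 12.8, 17.7, 12.4 and 12.7 in ft/ftMyD88-/- (log2 fold change 1.08, SE 0.144, adjusted p = 4.22e-04 by edgeR). *Adh1*, an alcohol dehydrogenase that also oxidises retinol, went from 79.5 to 53.8 CPM (log2 fold change -0.56, SE 0.122, adjusted p = 0.00623 by edgeR). *Rdh1*, the most abundant of them in CPM at 225 ± 19.3 and 200.1 ± 37.5 (SD, n = 4 each), was not called (edgeR adjusted p = 0.366). Of 6 genes that reduce retinal back to retinol, *Rdh11* and *Rdh12* fell and 0 rose. *Rdh12* was at 119, 118, 101 and 114 CPM in ft/ft against 67.8, 74.4, 73.5 and 62.4 in ft/ftMyD88-/- (log2 fold change -0.70, SE 0.0897, adjusted p = 3.26e-04 by edgeR), and *Rdh11* went from 309.6 to 205 CPM (-0.59, SE 0.103, adjusted p = 0.0019 by edgeR). *Dhrs3*, the retinal reductase that retinoic acid is known to induce, had a log2 fold change of -0.14 (SE 0.0913, adjusted p = 0.299 by edgeR).

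Of 3 further genes of retinoic acid delivery and degradation tested, 1 was called lower and 1 higher. *Fabp5*, a fatty acid-binding protein that can also carry retinoic acid, was at 849, 777, 679 and 791 CPM in ft/ft against 1161, 1375, 1018 and 2027 in ft/ftMyD88-/- (log2 fold change 0.85, SE 0.188, adjusted p = 0.0083 by edgeR). *Cyp26b1*, the most abundant retinoic acid hydroxylase gene here, was at 113, 121, 163 and 106 CPM in ft/ft against 65.6, 89.9, 107.8 and 69.8 in ft/ftMyD88-/-, a log2 fold change of -0.59 (SE 0.178, adjusted p = 0.0356 by edgeR) with overlapping libraries. *Cyp26a1* had 3 counts over all 8 libraries and was not tested, so no difference was detectable at this depth.

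Of 7 nuclear receptor genes of the list, which includes the fatty acid receptor *Ppard*, 3 were called lower and 2 higher. *Rxrg* fell most, from 8.10, 6.98, 8.14 and 8.24 CPM to 2.76, 4.41, 5.10 and 4.39 (log2 fold change -0.91, SE 0.18, adjusted p = 0.00385 by edgeR). *Rxra* fell by 0.43 and *Rarg* by 0.34 on the log2 scale (edgeR adjusted p = 0.00412 and 0.0201), whereas *Rara* rose by 0.34 and *Ppard* by 0.52 (edgeR adjusted p = 0.0386 and 0.016). *Rarb*, itself a known target of retinoic acid, was at 1.41 and 1.30 CPM and was not called (log2 fold change -0.09, SE 0.305, adjusted p = 0.859 by edgeR). Of 6 other genes known to respond to retinoic acid, 1 was called. *Rarres1* was at 1015, 661, 686 and 728 CPM in ft/ft against 225, 341, 486 and 255 in ft/ftMyD88-/- (log2 fold change -1.24, SE 0.247, adjusted p = 0.0072 by edgeR), without overlap.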

How the data were processed

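Bulk RNA-seq of periocular skin was measured in 4 ft/ft and 4 ft/ftMyD88-/- libraries. The authors deposited raw counts per gene without normalization, which the methods say were made with HISAT and tophat2 on GRCm38.p6 and with HTSeq at default settings. The submitters' processing notes for these 8 samples name Cell Ranger instead, and the labels name a fixed-tissue protocol where the methods describe polyA selection. Versions, annotation release and strand setting are not given in the sources used here. Columns were matched to samples by library name.

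Genes with at least 10 summed counts were tested with edgeR 4.0.16 in R 4.3.3 (TMM, glmQLFit with robust = TRUE, glmQLFTest, two-sided, Benjamini-Hochberg over all genes at 0.05). Standard errors came from the log2 fold change and F. The fit was tested on simulated data. Each p-value sets the difference between the groups against the spread between the samples within a group. The 10 genes, the pathway list and the marker lists were chosen with earlier results of these data known. From the pathway list, the text names up to 3 called genes per role with a mean of at least 50 counts, the most abundant gene of each role and 9 genes fixed by name, of which 1 is not reported here. *Rdh7*, *Rdh8*, *Rdh16f2*, *Aldh8a1* and 6 listed markers were not analysed here. Exon lengths and transcripts were GENCODE M21, coordinates and promoters RefSeq. Coding sequences were aligned with Biopython 1.88 in place of the planned protein comparison. Alternatives were DESeq2 1.42.0, limma 3.58.1 (voom), RLE, library size alone, filterByExpr, no filter, a replicate block, each library left out, an adjusted p under 0.01 and a minimum log2 change of 1 in size. Floors cover counting error only, and whether molecular identifiers were counted is not settled by the sources used here.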

Additional observations from a re-analysis of the deposited data

Results flagged for a closer look

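*Aldh1a3* in ft/ft replicate 2 stood at 65.2 CPM, whereas the other 3 ft/ft libraries lay between 35.8 and 37.2. The gap to the nearest library was 0.954 of the range of the group, above Dixon's 95% critical value for 4 samples. The 10 genes gave 20 groups of 4 libraries, of which chance alone flags about 1 in 20. Without that library, the log2 fold change of *Aldh1a3* was 1.55 in place of 1.29, and without ft/ftMyD88-/- replicate 2, at 201 CPM, it was 0.80.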

How the results depend on the processing

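The log2 fold changes of *Sdr16c5*, *Sdr16c6* and *Lrat* kept their direction and their call under all 15 alternative fits, with ranges of -2.48 to -2.26, -0.78 to -0.53 and 1.04 to 1.42. *Aldh1a1* lost its call in 7 of 15, *Aldh1a2* and *Dhrs9* in 4 each and *Crabp2* in 1, all with the same sign. *Aldh1a3* passed the threshold in 3, namely DESeq2, limma voom and the replicate block, and *Rdh10* with library size alone. *Crabp1* changed sign without ft/ftMyD88-/- replicate 2, with values of -0.13 to 0.35 as each library was left out. Library size alone moved the genes called lower to 2 of the 10, 7 of the pathway list and 1326 of all, and the total called higher to 4638. An adjusted p under 0.01 left 2 lower and 1 higher of the 10, 3 higher of the pathway list, and 1350 lower and 951 higher of all genes. A log2 fold change of at least 1 left 1 lower and 1 higher of the 10, 1 lower and 1 higher of the pathway list, and 520 lower and 752 higher of all, since fewer genes pass a stricter threshold. With each library left out in turn, 1 to 3 of the 10 genes, 3 to 6 of the pathway list and 1464 to 2260 of all genes were called higher. Of the 10 genes, 1 was called higher without ft/ft replicate 1 or without ft/ft replicate 4, and the pathway list fell to 3 without ft/ft replicate 3. The cause was not tested.

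Same-numbered libraries of the groups did not deviate together, with correlations of -0.35, 0.04, 0.07 and -0.03 over 13508 genes, so the numbers were not taken as pairs. With the replicate block, 4 of the 10 genes were called lower and 4 higher, 12 of the pathway list lower and 5 higher, and 2144 of all genes lower and 1895 higher.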
